A study of Mus musculus with 20 samples.

Results

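The 9 genes described here handle arginine, ornithine, glutamate and ammonium: the arginases Arg1 and Arg2, the citrulline-recycling enzymes Ass1 and Asl, the ornithine enzymes Odc1 and Oat, the glutamate enzymes Glud1 and Glul, and the ammonium transporter Rhbg. They were taken by the gene symbol of the array platform, and each was read from its brightest probe set on average over the 20 arrays. All 9 had such a probe set, among 18194 genes. Of these, 8 were bright enough to be tested, among 12499 genes that exceeded 6.85, the median over the whole table, on 3 or more arrays. Ass1 was not. The genes were chosen by their roles with earlier results of these data known, among them the log2 differences by outcome and by treatment: Glud1 had passed the threshold for tumor outcome, and Arg2 and Rhbg had stood near the top for treatment. Their differences in those comparisons are therefore given as descriptions, with no p-value for a single gene. Statements there that a gene passed the threshold or did not, and counts of genes under it, are descriptions too.

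The study asked whether gene expression in a still tumor-free mammary gland differed between mice that later developed a mammary tumor and mice that did not. All animals were female FVB/N mice of line 1372-1 TgN(Nrl-tgfalpha)29EPS, heterozygous for NRL-TGFα, a transgene whose promoter directs the growth factor TGFα to the mammary gland. The placebo animals carried it too, and no gland without the transgene is among the 20. At 8.5 weeks of age each mouse was given an implant under the skin that released 5 mg of tamoxifen, a blocker of the oestrogen receptor in the breast, or that held carrier alone (placebo). A number 4 gland was removed at 20.5 to 21 weeks, 4 weeks after treatment, and the mice were watched for up to 2 years. The 4 groups were 3 placebo animals without and 7 with a later tumor, and 7 tamoxifen animals without and 3 with one. Treatment and outcome were thus unevenly crossed, and each array held RNA from the whole gland of 1 animal.

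Arginase splits arginine into urea and ornithine. Arg1 encodes the cytosolic form, abundant in liver and in some macrophages, and Arg2 the mitochondrial form. Ornithine can go through ornithine decarboxylase (Odc1) to the polyamines that dividing cells need, or through ornithine aminotransferase (Oat) towards proline and glutamate. Argininosuccinate synthase (Ass1) and lyase (Asl) rebuild arginine from citrulline. Glutamate dehydrogenase (Glud1) releases ammonium from glutamate in mitochondria, glutamine synthetase (Glul) fixes it into glutamine, and Rhbg, a Rh family protein, carries ammonium across the plasma membrane. In lactating mammary tissue arginase activity is known to supply ornithine for the synthesis of proline, an abundant amino acid of milk casein.

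Values are log2 RMA expression, so a difference of 1 is a doubling. Array medians lay between 6.82 and 6.89, and their number, not a read depth, limits the precision. The first principal component held 31.9% of the variance, and its extreme glands were those of placebo animals 8, 7 and 9, each from the group that later had tumors. Of 12 pan-epithelial markers, 11 were above 6.85 on all 20 arrays, as were 10 of 10 macrophage, 6 of 6 adipocyte and 6 of 6 fibroblast markers with a probe set. The tissue label thus had its defining epithelial and adipose markers.

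Several cell type lists moved with the groups compared, and others moved little. The mean of the pan-epithelial list (led in level by Krt18 and Spint2) ran from 8.39 to 9.17 in placebo animals without tumors and from 9.31 to 10.37 in those with tumors. It ran from 8.58 to 9.46 in tamoxifen animals without tumors and from 9.04 to 9.35 in those with tumors. The milk and alveolar list (Glycam1 and Csn3) differed by 2.09 for later tumor minus no tumor and by −1.71 for tamoxifen minus placebo, and the skeletal muscle list (Acta1 and Eno3) by −1.18 and 2.19. The macrophage list (Retnla and Lyz2) differed by 0.07 and −0.01, and the neutrophil list (Ltf and Elane) by 0.06 and 0.15, in the same 2 comparisons. The lymphocyte list (Ms4a1 and Cd3d) differed by −0.38 and 0.39. Fits that carry the pan-epithelial mean are quoted beside the arginases, Asl, Glud1 and Rhbg. The part of the other lists in these results was not tested. In whole glands, fewer cells of a type and less RNA per cell cannot be told apart.

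**Figure D1:**
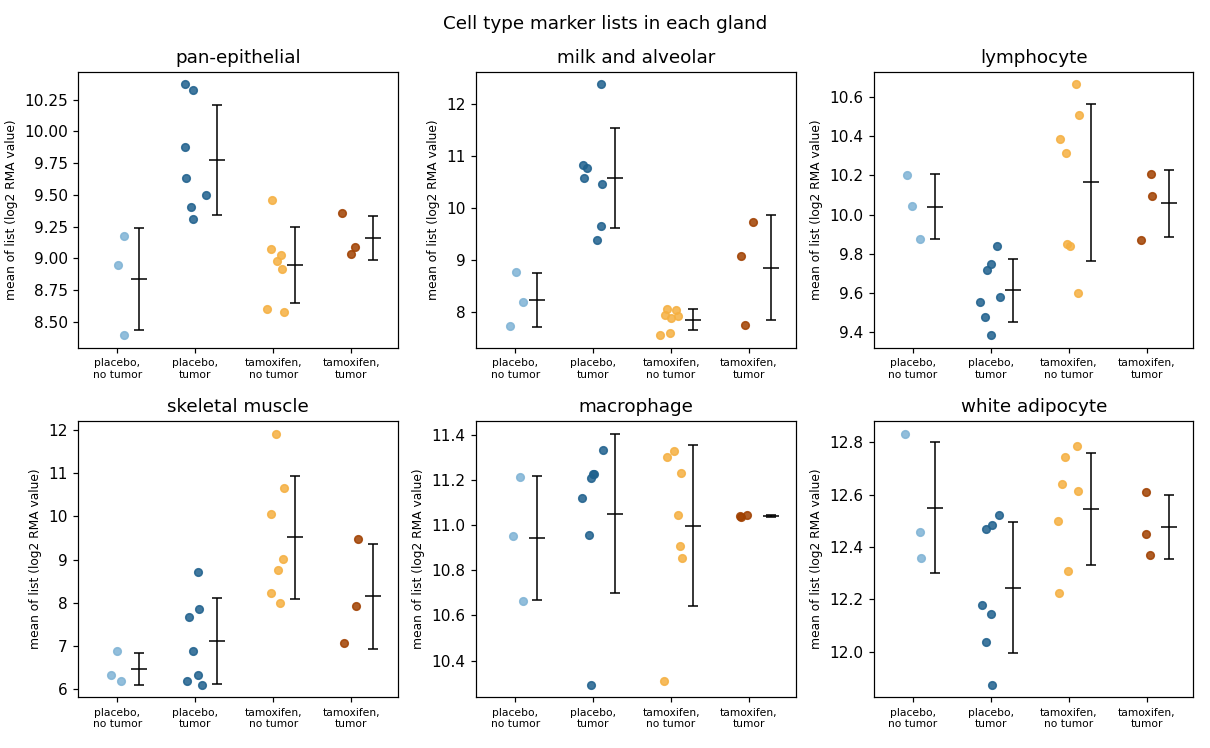
Each point is 1 gland and shows the mean log2 RMA value over the genes of a cell type list (y axes, each with its own range) in the 4 groups (x axes), with bars for the group mean and SD. The 7 placebo animals with later tumors span 9.31 to 10.37 on the pan-epithelial list, and the 7 tamoxifen animals without tumors 8.58 to 9.46, so that these groups overlap through 1 tamoxifen animal.

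Arg2 (Entrez 11847, GRCm38.p6 chr12:79130788-79156301) had the largest differences among the 8 tested genes by outcome, by treatment and between the opposite corners of the design. In placebo animals without tumors its values were 7.66, 7.04 and 8.05, and in placebo animals with tumors they ran from 7.80 through a median of 8.00 to 8.97. In tamoxifen animals without tumors they ran from 6.17 through 6.53 to 7.13, and in tamoxifen animals with tumors they were 6.85, 7.74 and 7.50. On the brightest probe set all 7 placebo animals with tumors lay above all 10 tamoxifen animals. The tamoxifen animals without tumors filled the low end. Treatment groups as a whole overlapped, through the placebo animals without tumors. The means were 8.06 ± 0.59 (SD, n = 10) after placebo and 6.85 ± 0.51 (SD, n = 10) after tamoxifen. The difference was −1.22 ± 0.23 (SE), or 2.32-fold, and −0.93 ± 0.20 with outcome in the fit. It was −0.96 ± 0.29 in animals without and −0.91 ± 0.29 in animals with a later tumor. All 10 tamoxifen animals lay below the placebo median.

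Arg2 also differed by outcome, by 1.08 ± 0.26 (SE), with 9 of 10 tumor animals above the median of the animals without tumors. With treatment in the fit the outcome difference was 0.71 ± 0.20. Inside each treatment the outcome difference was of similar size, 0.69 ± 0.29 in placebo animals and 0.74 ± 0.29 in tamoxifen animals. Their difference, the interaction of treatment and outcome, was 0.05 with a 95% interval from −0.81 to 0.91 (limma adjusted p = 0.992). Between opposite corners of the design, 7 tumor-free tamoxifen animals minus 7 placebo animals with tumors, the difference was −1.64 ± 0.23, or 3.12-fold, and the groups did not overlap. With the pan-epithelial mean in the fit, the treatment difference was −0.86 ± 0.21 and the outcome difference 0.55 ± 0.31. The second Arg2 probe set was dim, with a mean of 6.15 and values above 6.85 on 3 arrays. It gave −1.08 ± 0.23 for treatment and 0.88 ± 0.28 for outcome. On it, placebo animals with tumors started at 6.32 and tamoxifen animal 2, with a tumor, stood at 6.58, so those groups overlapped. The tamoxifen animals without tumors, at most 5.91, stayed below the placebo animals with tumors.

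Arg1 (Entrez 11846, chr10:24915207-24927470) varied most from animal to animal. Placebo animals without tumors had 7.98, 6.36 and 8.65, and placebo animals with tumors ran from 7.69 through 8.62 to 9.80. Tamoxifen animals without tumors ran from 6.11 through 7.42 to 8.32, and tamoxifen animals with tumors had 7.09, 7.91 and 6.81. The groups overlapped throughout, with placebo animal 5 and tamoxifen animal 6 lowest and placebo animal 2 highest. The difference was −1.002 ± 0.34 for treatment and 0.77 ± 0.37 for outcome, and neither passed the threshold. Treatment with outcome in the fit gave −0.83 ± 0.37, and outcome with treatment in the fit 0.43 ± 0.37. The outcome difference was 0.998 ± 0.50 within placebo and −0.13 ± 0.50 within tamoxifen, and the interaction of −1.13 had an interval from −2.61 to 0.35 (limma adjusted p = 0.938). With the pan-epithelial mean in the fit, the treatment difference of Arg1 was −0.64 ± 0.36 and the outcome difference 0.11 ± 0.45.

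The arginases varied together among animals of the same group. After each group's mean was subtracted, Arg1 and Arg2 correlated with r = 0.792 (permutation p = 0.00029) and rho = 0.833 (permutation p = 0.00016) over the 20 animals. Labels were permuted within groups, and after adjustment over the 28 pairs of the 8 genes the permutation p-values were 0.00812 and 0.00448. No other pair passed by r. Without placebo animal 5 and tamoxifen animal 6, the farthest from the median of Arg1 after group means were subtracted, r was 0.752.

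The relation was also present inside the larger groups. In the 7 placebo animals with tumors r was 0.821 (exact permutation p = 0.0284) and rho 0.893 (exact permutation p = 0.0123). In the 7 tamoxifen animals without tumors r was 0.744 (exact permutation p = 0.0443) and rho 0.75 (exact permutation p = 0.0663). The second Arg2 probe set gave r = 0.823 and 0.632 in these groups (exact permutation p = 0.0268 and 0.126). These within-group tests were chosen after seeing the data, and they were not adjusted. With the macrophage list, r was 0.08 for Arg1 and −0.26 for Arg2 after group means were subtracted. None of 80 pairs of a gene and a cell type list passed by r after adjustment.

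**Figure D2:**
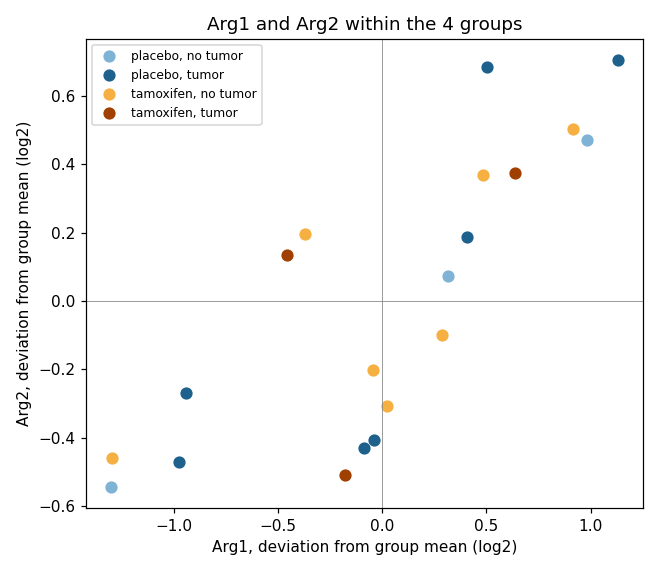
Each point is 1 of 20 glands, placed by the deviation of Arg1 (x axis) and Arg2 (y axis) from the mean of its group, both in log2 units, with colors for the 4 groups. Animals above their group mean for Arg1 were mostly above it for Arg2 (r = 0.792).

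Asl (Entrez 109900, chr5:130011258-130024381) differed by small amounts. Its group means were 8.56 ± 0.10 (SD, n = 3) and 8.46 ± 0.08 (n = 7) in placebo animals without and with tumors, and 8.57 ± 0.10 (n = 7) and 8.42 ± 0.06 (n = 3) in the corresponding tamoxifen animals. The outcome difference of −0.12 ± 0.04 and the treatment difference of 0.03 ± 0.05 did not pass the threshold, and the outcome groups overlapped. As for Glud1 below, all 10 tumor animals lay below the median of the animals without tumors. With the pan-epithelial mean in the fit, the outcome difference of Asl was −0.18 ± 0.05 and the treatment difference 0.03 ± 0.06. Among animals of the same group, Asl tracked the fibroblast list with r = 0.732 (permutation p adjusted over 80 pairs = 0.0872) and rho = 0.790 (adjusted permutation p = 0.0336).

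Ass1 (Entrez 11898, chr2:31470270-31520670), the enzyme that makes the substrate of Asl, was read from a probe set with a mean of 4.25 that exceeded 6.85 on 0 arrays. Its group means lay between 4.23 and 4.27. A brighter probe set, with a mean of 8.49 and values from 8.08 to 9.17, is annotated to both Ass1 and the pseudogene Gm5424 and cannot be credited to either. Its differences were −0.16 by outcome and 0.14 by treatment.

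Odc1 (Entrez 18263, chr12:17544808-17551502), which commits ornithine to polyamines, did not separate the groups. Placebo animals without tumors had 10.19, 10.11 and 10.05, and placebo animals with tumors ran from 9.97 through 10.18 to 11.22. Tamoxifen animals without tumors ran from 10.10 through 10.29 to 10.32, and those with tumors had 10.02, 10.12 and 10.40. One animal stood apart: placebo animal 8, at 11.22, against at most 10.40 elsewhere. The same gland had the highest level of Mki67, a marker of dividing cells, at 10.77 against 8.71 in the next gland. The differences were 0.04 ± 0.11 by outcome and −0.00 ± 0.11 by treatment, and their sign turned in several other settings.

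Oat (Entrez 18242, chr7:132557475-132576398), the other exit from ornithine, varied little. Its means were 11.02 ± 0.08 (SD, n = 3) and 10.87 ± 0.12 (n = 7) in placebo animals without and with tumors, and 10.98 ± 0.12 (n = 7) and 10.88 ± 0.05 (n = 3) in the tamoxifen animals. The outcome difference was −0.12 ± 0.05 and the treatment difference 0.03 ± 0.05, with overlapping groups, and neither passed the threshold.

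**Figure D3:**
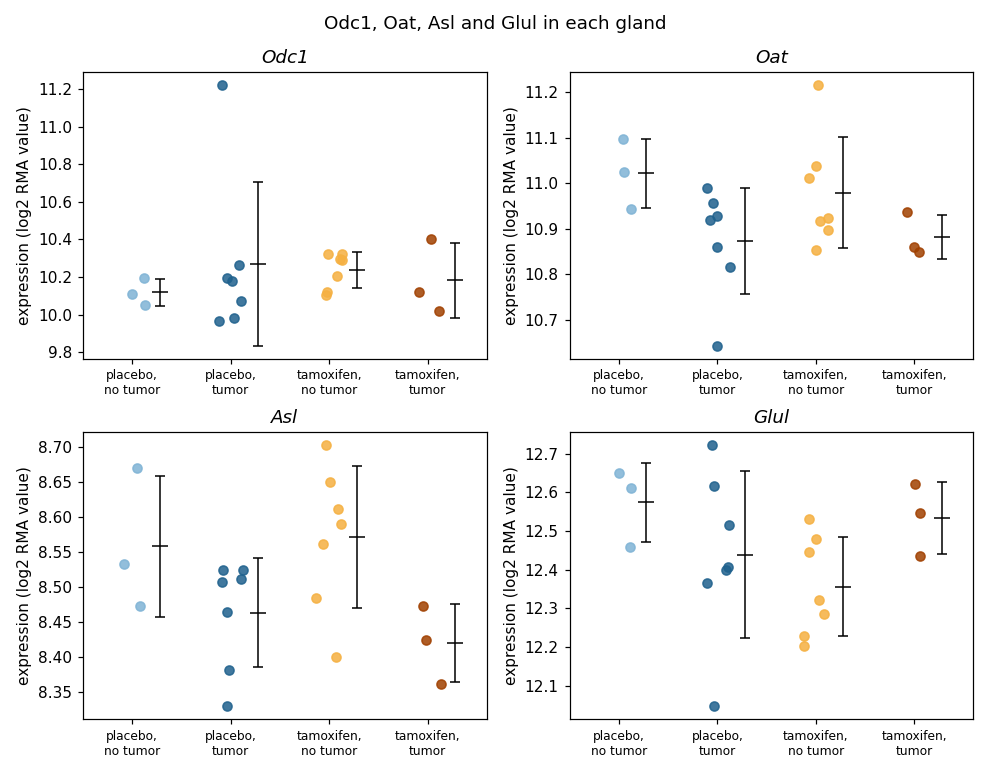
Each point is the log2 RMA value of 1 gland (y axes, each with its own range) for Odc1, Oat, Asl and Glul in the 4 groups (x axes), with bars for the group mean and SD. The groups overlap for all 4 genes, except that for Oat the placebo animals without tumors (10.94 to 11.10) lie just above the tamoxifen animals with tumors (10.85 to 10.94), and placebo animal 8 stands alone at 11.22 for Odc1.

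Glud1 (Entrez 14661, chr14:34310727-34345033) was the 1 gene of the 8 that passed the threshold for outcome, where 0.232% of all tested genes did, and 0.032% passed as lower. Its values were 11.80, 11.66 and 11.51 in placebo animals without tumors and ran from 11.17 through 11.41 to 11.55 in those with tumors. They ran from 11.48 through 11.66 to 11.72 in tamoxifen animals without tumors and were 11.41, 11.38 and 11.54 in those with tumors. All 10 tumor animals lay below the median of the animals without tumors, although the ranges overlapped between 11.48 and 11.55. The means were 11.64 ± 0.10 (SD, n = 10) without and 11.39 ± 0.13 (SD, n = 10) with a tumor, a fall of 1.19-fold (log2 −0.25 ± 0.05 SE).

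The Glud1 difference was small and similar within each treatment, at −0.29 ± 0.08 in placebo and −0.19 ± 0.08 in tamoxifen animals. Its interaction was 0.10 with an interval from −0.14 to 0.34 (limma adjusted p = 0.940). The treatment difference was 0.12 ± 0.07. The outcome difference was −0.24 ± 0.06 with treatment in the fit and −0.17 ± 0.07 with the pan-epithelial mean. It was −0.19 without placebo animals 7, 8 and 9, of which 8 and 7 had the lowest values, and it then no longer passed. The call was also lost in 14 of 20 fits that left out 1 animal, and the second Glud1 probe set gave −0.22.

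Glud1 and Oat are both mitochondrial enzymes that yield or use glutamate and that were lower on average with a later tumor, and their promoters are set side by side. They are the 250 bases before the gene start in RefSeq, build GRCm38.p6, with GC boxes (GGGCGG on either strand) in capitals.
Glud1, chr14:34310477-34310726, plus strand: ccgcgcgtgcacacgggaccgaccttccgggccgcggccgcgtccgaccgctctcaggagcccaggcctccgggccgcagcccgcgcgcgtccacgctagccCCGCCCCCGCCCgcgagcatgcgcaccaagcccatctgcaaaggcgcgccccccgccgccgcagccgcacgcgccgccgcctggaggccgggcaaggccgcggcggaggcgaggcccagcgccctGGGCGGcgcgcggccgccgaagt
Oat, chr7:132576399-132576648, minus strand: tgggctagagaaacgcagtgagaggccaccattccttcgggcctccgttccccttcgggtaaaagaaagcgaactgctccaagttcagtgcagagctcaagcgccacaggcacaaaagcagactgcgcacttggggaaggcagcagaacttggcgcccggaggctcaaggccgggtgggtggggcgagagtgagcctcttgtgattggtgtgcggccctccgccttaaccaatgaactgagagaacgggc
The Glud1 window had a GC content of 82.0% and 3 GC boxes, and the Oat window 60.0% and 0. Oat held 2 CCAAT boxes (CCAAT on either strand) and Glud1 0. Over 32851 promoters of the same length, 32.7% held a GC box and 33.8% a CCAAT box, and the median GC content was 52.4%. Neither window held the STAT5 motif TTCNNNGAA or the oestrogen response element, which occur in 7.02% and 0.0639% of promoters. A match describes the letters only.

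Glul (Entrez 14645, chr1:153899929-153909723), which consumes the ammonium that Glud1 releases, did not separate the groups either. Placebo animals without tumors had 12.65, 12.61 and 12.46, and placebo animals with tumors ran from 12.05 through 12.41 to 12.72. Tamoxifen animals without tumors ran from 12.20 through 12.32 to 12.53, and those with tumors had 12.55, 12.62 and 12.43. The groups overlapped. Outcome differed by 0.05 ± 0.07 and treatment by −0.07 ± 0.07. The outcome difference was −0.13 ± 0.11 in placebo and 0.18 ± 0.11 in tamoxifen animals, and the interaction of 0.31 had an interval from −0.01 to 0.63 (limma adjusted p = 0.938).

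Rhbg (Entrez 58176, chr3:88242874-88254739) differed by treatment more than by outcome. Its values were 7.96, 7.35 and 7.29 in placebo animals without tumors and ran from 7.40 through 7.63 to 7.78 in those with tumors. They ran from 6.74 through 7.01 to 7.51 in tamoxifen animals without tumors and were 7.18, 7.06 and 7.26 in those with tumors. All tamoxifen animals except number 8, at 7.51, lay below every placebo animal. The means were 7.57 ± 0.22 (SD, n = 10) after placebo and 7.08 ± 0.23 (SD, n = 10) after tamoxifen, a difference of −0.49 ± 0.10, or 1.41-fold. It was −0.49 ± 0.15 in animals without and −0.42 ± 0.15 in animals with a later tumor, and −0.42 ± 0.11 with the pan-epithelial mean in the fit.

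By outcome, Rhbg differed by 0.27 ± 0.13, by 0.09 ± 0.10 with treatment in the fit and by 0.08 ± 0.17 with the pan-epithelial mean. Its interaction was 0.06 with an interval from −0.39 to 0.51 (limma adjusted p = 0.976). These values sit close to the level of 6.85 used for the filter, which Rhbg exceeded on 18 arrays and Arg2 on 15. Arg2 fell below that level only in tamoxifen animals without tumors, whose median was 6.53. That level is the median over the whole table, so that both genes were read near the middle of all values.

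**Figure D4:**
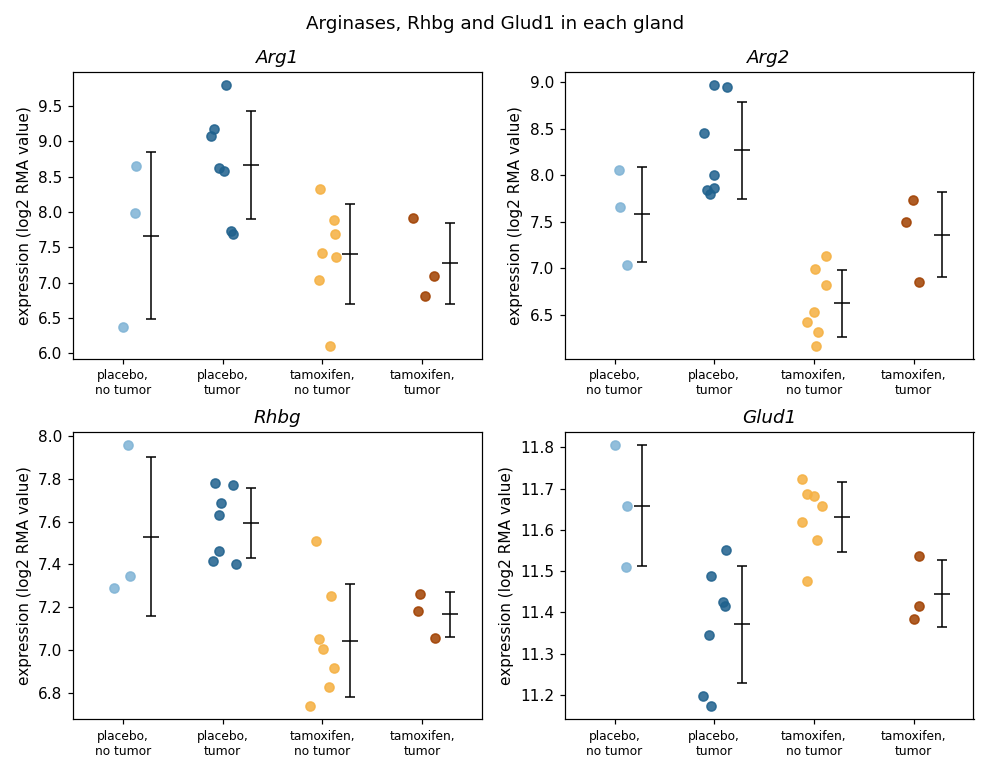
Each point is the log2 RMA value of 1 gland (y axes, each with its own range) for Arg1, Arg2, Glud1 and Rhbg in the 4 groups (x axes), with bars for the group mean and SD. For Arg2 the 7 placebo animals with tumors (7.80 to 8.97) lie above the 7 tamoxifen animals without (6.17 to 7.13), and for Glud1 the tumor groups are the lower ones.

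Across the 8 tested genes, 1 passed for outcome (Glud1, lower) and 0 for treatment, where 0.008% of all tested genes passed by limma. For treatment 3 had an unadjusted limma p under 0.05, as did 13.9% of all genes. Between tamoxifen animals without tumors and placebo animals with tumors, 3 passed, Arg2 and Rhbg lower and Glud1 higher, where 4.63% of all genes passed, 2.4% as lower and 2.23% as higher. There Arg2 did not overlap, as for 1.13% of all tested genes in that direction, Rhbg was lower by 0.55 ± 0.12, and Glud1 was higher by 0.26 ± 0.06. These comparisons share animals and chose the genes, and nothing is read from the counts. The median difference over the 8 genes was 0.04 by outcome and −0.04 by treatment, beside −0.01 and 0.00 over all genes.

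**Figure D5:**
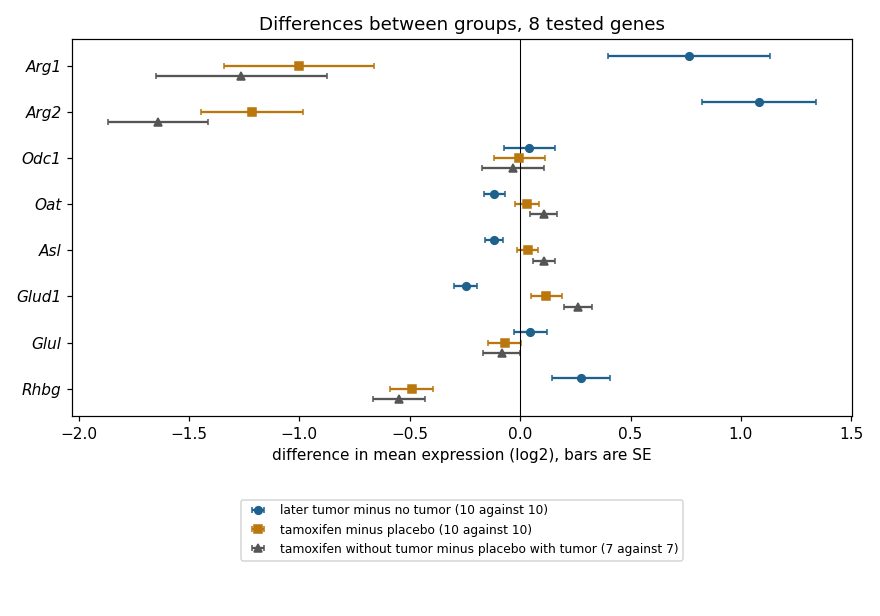
Points are differences in mean log2 expression (x axis) of the 8 tested genes (y axis) for later tumor minus no tumor, tamoxifen minus placebo, and tamoxifen without tumor minus placebo with tumor, with bars for the SE. Arg2 is at 1.08, −1.22 and −1.64, and Odc1 sits at 0.04, −0.00 and −0.03.

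The smaller comparisons called none of the 8 genes by limma. The outcome comparison within placebo animals had 2 genes at an unadjusted p under 0.05, beside 14.1% of all genes at that level, and 0.008% of all genes passed. The comparison within tamoxifen animals had 3, beside 2.10% of all genes, and 0.008% of all genes passed. Treatment within animals without tumors had 2, beside 5.26% of all genes, and 0.064% of all genes passed. Treatment within tumor animals had 3, beside 7.001% of all genes, and 0% of all genes passed. Arg2 and Rhbg did not overlap there, with all 3 tamoxifen animals below all 7 placebo animals, as for 1.98% of all genes. On the second Arg2 probe set these groups overlapped. The interaction had 0 genes at that level, 4.52% of all genes were at it, and 0% passed. With 3 animals in the smaller arm, the intervals above were wide.

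Around these genes, 76 others of the same pathways were listed, of which 67 had a probe set and 46 were bright enough to be tested. None passed in any of the 8 comparisons by limma, and 8 of 46 had an unadjusted p under 0.05 for outcome and 5 of 46 for treatment, beside 16.5% and 13.9% of all tested genes. Their median difference was 0.04 by outcome and −0.06 by treatment, with 30 and 16 of 46 positive. The values that follow are those with the smallest p in their list, and none passed.

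Among arginine transporters, Slc7a2, a cationic amino acid carrier, differed by 0.53 for outcome (limma adjusted p = 0.228) and −0.41 for treatment (adjusted p = 0.440). Its group means were 8.20 ± 0.58 (SD, n = 3) and 8.78 ± 0.65 (n = 7) in placebo animals without and with tumors, and 8.11 ± 0.39 (n = 7) and 8.41 ± 0.50 (n = 3) in tamoxifen animals. Slc25a13, the mitochondrial aspartate-glutamate exchanger that serves the urea cycle, differed by 0.36 for outcome (limma adjusted p = 0.230). Slc25a15, the mitochondrial ornithine carrier, differed by −0.13 for treatment (limma adjusted p = 0.338). The nitric oxide synthases use the same arginine pool: Nos1 differed by 0.17 for outcome (limma adjusted p = 0.228) and Nos3 by −0.15 for treatment (adjusted p = 0.616).

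In the polyamine list, the spermine oxidase Smox differed by 0.22 for outcome (limma adjusted p = 0.192), and Oaz2, an antizyme that inhibits ornithine decarboxylase, by −0.11 for treatment (adjusted p = 0.217). In the proline list, Prodh, which oxidizes proline, differed by −0.23 for outcome (limma adjusted p = 0.264), and Aldh4a1, the next enzyme, by −0.10 for treatment (adjusted p = 0.666). In the glutamate lists, the subunits of the enzyme that starts glutathione synthesis led: Gclm differed by 0.18 for outcome (limma adjusted p = 0.236) and Gclc by −0.27 for treatment (adjusted p = 0.1996). Of the glutamate and glutamine carriers, Slc1a4 differed by 0.19 for outcome (limma adjusted p = 0.134) and Slc38a2 by −0.14 for treatment (adjusted p = 0.372). Aqp3, a channel that also passes ammonia, differed by −0.10 for outcome (limma adjusted p = 0.406) and 0.15 for treatment (adjusted p = 0.209).

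Over the 20 arrays, the genes most like Arg2 among all tested were Nck2 (r = 0.898), Prag1 (0.893) and Krt19 (0.880), a luminal keratin. With group means subtracted these were 0.612, 0.703 and 0.725. Those most like Rhbg were Tst (0.835), Lhx6 (0.835) and Etl4 (0.826), or 0.707, 0.805 and 0.665 with group means subtracted. Those most like Glud1 were S100a13 (0.911), Tpst2 (0.900) and Dusp3 (0.898), or 0.911, 0.796 and 0.788. The points share groups and treatment, so these are descriptions of likeness only.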

How the data were processed

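RNA from 20 mammary glands was read on Affymetrix arrays, 1 per animal. The authors deposited log2 RMA expression values per probe set, and the submitters' processing notes name RMA; the sources used here give no software version. Values of the 45101 probe sets lay between 3.38 and 14.55 and were used unaltered. RMA is known to compress differences at low signal.

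Probe sets were joined to symbols by the platform table, updated by Entrez ID (34958 had 1 symbol, 932 several and 9211 none). Each gene was read from its brightest probe set, which gave 18194 genes. Genes above 6.85 on at least 3 arrays, 12499 in all, were fitted by lmFit and eBayes of limma 3.58.1 under R 4.3.3 (two-sided, Benjamini-Hochberg over all tested genes, threshold 0.05). Outcome and treatment were 2-group fits, and a model of the 4 groups gave the other 6 of 8 comparisons. Correlations used group-centred values, with 100000 permutations within groups, or exact permutation within 1 group. Nothing in the labels marks technical repeats, and each animal was 1 replicate.

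The genes and lists were chosen with earlier results of these data known. Genes named were the 9, the pathway gene with the smallest p per list for outcome and treatment, the 3 genes most like Arg2, Rhbg and Glud1, and the 2 brightest markers per list. Mki67 and the within-group arginase correlations were added after seeing the data. Scaling, filter, probe set, variance model, array weights, replicate numbers, covariates and left-out animals were varied. The procedure was tested on simulated data. Promoters came from RefSeq, which had an entry for 5 of the 9 genes (Ass1, Glud1, Glul, Oat and Odc1). For Arg1, Arg2, Asl and Rhbg no promoter was used here.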

Additional observations from a re-analysis of the deposited data

Results flagged for a closer look

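Odc1 in 1 placebo animal with a later tumor, number 8, stood far above the other 6 of its group on all 3 probe sets. The values were 11.22 against 10.26 for the next animal, 11.14 against 10.10, and 8.67 against 7.96. The gap to the next animal took 0.763, 0.793 and 0.83 of the range of the group. The 3 readings come from 1 gland and 1 gene, so they are not independent. Among 30 groups of values examined, 3 met this criterion, and chance gives about 1 in 20. The same gland had the highest Mki67, at 10.77, and its part in the Odc1 value was not tested.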

How the results depend on the processing

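For outcome, the 1 gene past the threshold (Glud1) fell to 0 with quantile normalization, a common median, no filter, the mean of all probe sets, the probe set of largest variance, trend and robust settings, no moderation, array weights, treatment as a covariate, and without placebo animals 7, 8 and 9. For treatment, the 0 genes became 2 (Arg2 and Rhbg) with the probe set of largest variance and with a replicate block for the treatment numbers. For the 7 against 7 comparison, the 3 genes became 1 (Arg2) without placebo animals 7, 8 and 9. They became 2 (Arg2 and Rhbg) with the probe set of largest variance, and 2 (Arg2 and Glud1) with the replicate block, which ended the Rhbg call. Of all 12499 tested genes, 141 passed there without those placebo animals and 1647 with the block, against 579 in the main fit. For outcome, 8 of all tested genes passed without those animals and 0 with treatment as a covariate, against 29. Nothing is read from the counts of the 8 genes. Leaving out 1 animal gave 0 to 2 genes for outcome (0 in 14 of 20 fits), 0 to 2 for treatment (2 without placebo 5, placebo 6 or tamoxifen 10, 1 without tamoxifen 2 or 8), 2 to 4 for the 7 against 7 comparison, and 0 to 0 for the other 5. The cause of these changes was not tested.

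The sign turned mainly for genes near 0. Odc1 by outcome was −0.00099 with the probe set of largest variance, −0.0500 with array weights, −0.0775 without placebo 7, 8 and 9, −0.17 with the pan-epithelial mean, and −0.0675 to 0.0722 leaving out 1 animal. Odc1 by treatment was 0.0041 with quantile normalization, 0.0098 with the mean of probe sets, 0.10 with the largest variance, 0.11 with array weights, 0.12 without those animals, 0.0155 with outcome and 0.12 with the pan-epithelial mean, and −0.0322 to 0.11 leaving out 1 animal. In the 7 against 7 comparison Odc1 was 0.0732, 0.11 and 0.16 with the largest variance, array weights and without those animals, and −0.0826 to 0.13 leaving out 1. Oat by treatment was −0.0043 with array weights, −0.0159 without those animals, −0.0170 with outcome and −0.0413 with the pan-epithelial mean. Asl by treatment was −0.0153 with outcome, and Glul in the 7 against 7 comparison was 0.0344 with the replicate block.

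Whether the replicate numbers pair the animals cannot be settled from so few pairs. For treatment numbers, deviations of same-numbered animals correlated from −0.11 to 0.46, over 0.1 in 4 of 10 pairs. For outcome numbers they correlated from −0.17 to 0.33, over 0.1 in 4 of 10. With the block, 235 of all tested genes passed for treatment, against 1 without. Limits: the genes were chosen on these data, the smaller arms hold 3 animals, Arg2 and Rhbg lie near the filter level, and Ass1 has no usable probe set of its own.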

Other observations

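Among animals of the same group, Odc1 and Glul ran against each other with r = −0.727 over 20 animals (permutation p adjusted over 28 pairs = 0.0917), and with r = −0.429 without placebo animal 8 and tamoxifen animal 10, so that the relation rests largely on those animals. Glud1 ran with the endothelial list (r = 0.673, permutation p adjusted over 80 pairs = 0.128), and Oat with the white adipocyte list (r = 0.655, adjusted permutation p = 0.128). Arg2 and the pan-epithelial list correlated with r = 0.725 over all 20 arrays and 0.491 after group means were subtracted (adjusted permutation p = 0.532). None of these passed.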
